A study of Homo sapiens with 4 samples.

Results

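The change that miR-1, miR-122, and miR-124 had in common when given as mimics was described as the mean FPKM (fragments per kilobase of gene length per 1000000 reads) of the 3 mimic libraries over the FPKM of the control RNA library. Of 58243 genes in the files, 10060 had an FPKM of at least 1 in the control library or in the mimic mean and were compared. A gene was counted as shared higher or shared lower when the mimic mean was at least 1.5-fold above or below the control and each of the 3 mimic libraries lay on that side. By this rule 362 genes (3.6%) were shared higher and 740 (7.36%) were shared lower. The cells were 293T, a line derived from human embryonic kidney, transfected in six-well plates with 2 μg per well of a negative control RNA or of a mimic of 1 of the 3 miRNAs. The labels give 48 h of transfection and the methods give 36 h for the same step. Each of the 4 conditions had 1 library, so no difference below has a replicate check and no p-value was calculated. All 3 ratios have the control library as their denominator, so a deviation of that library alone moves all 3 ratios of a gene together.

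miRNAs guide Argonaute proteins to mRNAs that pair with their seed, which mostly lowers the level of the paired mRNA. miR-1 is known from heart and skeletal muscle, miR-122 from liver, and miR-124 from neurons, and a cell line that lacks a miRNA can be given it as a transfected duplex. Mimics with different seeds have different direct targets, and any RNA duplex that enters a cell also passes through the transfection procedure and competes for Argonaute. A negative control RNA takes the same route without a natural target set.

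The mature sequences of 2 of the 3 miRNAs are shown because the seed, in capitals, is the part that pairs with targets. Both are RefSeq entries on GRCh38.p14, with miR-1 placed at chr20:62554351-62554372 and miR-122 at chr18:58451088-58451109, both on the plus strand. miR-124 is named only.
miR-1: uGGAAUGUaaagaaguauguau
miR-122: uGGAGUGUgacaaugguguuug
The match to bases 2 to 8 of miR-1 in a 3′ UTR is ACATTCC and that of miR-122 is ACACTCC, so these 7-letter words differ and a site for one is not a site for the other.

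Read depth limited how many shared changes can be read gene by gene. The divisors of the FPKM values corresponded to 6624306 reads in the control library and to 9452232, 5887055, and 6465436 reads in the miR-1, miR-122, and miR-124 libraries, so that 1 read on a gene of 1 kb was worth an FPKM of 0.151, 0.1058, 0.1699, and 0.1547, respectively. Of the shared lower genes, 643 had fewer than 100 reads over the 4 libraries and 505 had entered the comparison only through the control library. Of the shared higher genes, 249 had fewer than 100 reads and 198 had entered only through the mimic mean. A gene that entered only through the group where it was high had to differ, and such genes give no support to a direction. The extremes were 181 shared lower genes at 0 in all 3 mimic libraries and 48 shared higher genes at 0 in the control. The genes described below are the 8028 with at least 100 reads, of which 113 (1.41%) were shared higher and 97 (1.21%) were shared lower. Of these, 28 higher genes still passed only through the mimic mean and 30 lower genes only through the control. The reads were recovered from the FPKM values and can be too high for some genes, which may then have fewer than 100.

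**Figure D1:**
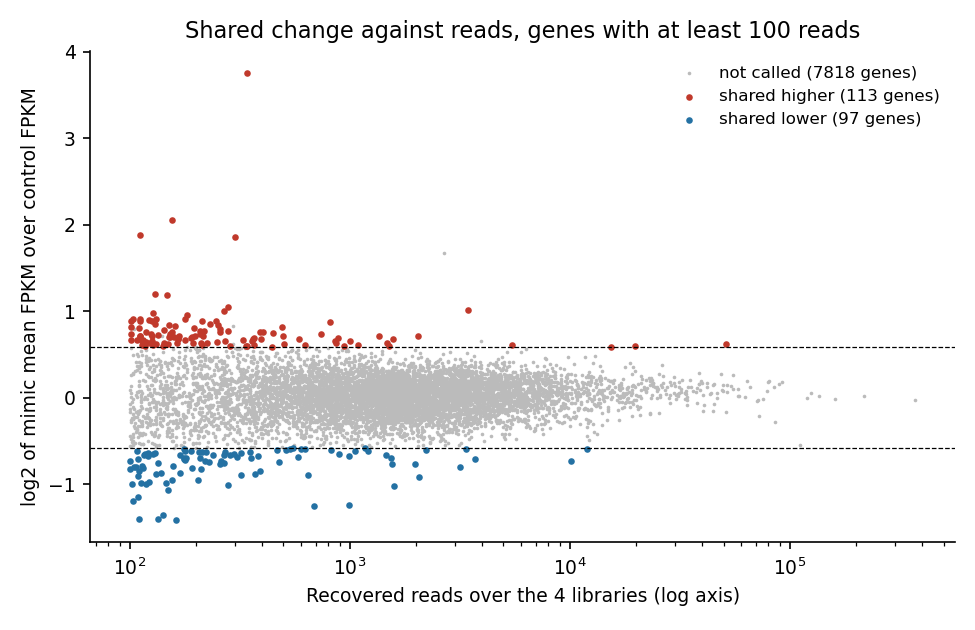
Each point is 1 of the 8028 genes with at least 100 reads. The horizontal axis gives recovered reads over the 4 libraries on a log scale, the vertical axis gives the log2 of the mean FPKM of the 3 mimics over the control, and dashed lines mark 1.5-fold. The 113 shared higher and 97 shared lower genes lie mostly at the low end of the read axis, and 85% of all genes are within 1.25-fold.

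Most mRNAs differed little between the control and the mimics. The mimic mean was within 1.25-fold of the control for 85% of the 8028 genes, and the median log2 ratio over them was 0.02 for miR-124 and miR-122 and 0.01 for miR-1. Past 2-fold in the mean there were 8 shared higher and 12 shared lower genes. All 3 libraries were past 1.5-fold on their own in 26 higher and 29 lower genes. The distance from the control to the nearest mimic exceeded the whole range among the 3 mimics in 56 of the 113 higher and 50 of the 97 lower genes, a count given only as a description because the same values chose the genes. Intervals given below are exact 95% counting intervals of the pooled mimic reads over the control reads, which cover counting error only and compare these libraries, not the conditions. They rest on recovered reads and are too narrow where these are too high. Because these were bulk samples, fewer cells expressing a gene and less of its RNA per cell cannot be told apart.

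The control library stood apart from the mimics about as often as single mimic libraries stood apart from the rest. With each library in turn set against the mean of the other 3 under the same 1.5-fold rule, the control was highest in 97 genes and lowest in 113. The miR-1 library was highest in 50 genes (0.623%) and lowest in 204 (2.54%), the miR-122 library highest in 53 (0.66%) and lowest in 95 (1.18%), and the miR-124 library highest in 106 (1.32%) and lowest in 67 (0.835%). The sum was therefore 210 genes for the control, which lay between the 148 of miR-122 and the 254 of miR-1, with 173 for miR-124. The FPKM minimum was set on the control and on the mimic mean, so it favoured genes in which the control stood apart. With the minimum met in both, the control was lowest in 85 genes and highest in 67. The mimic libraries were not recounted in this way. At any size of difference, all 3 mimics were above the control in 2397 genes (29.9%) and below it in 2002 (24.9%), together 54.8%. The miR-1 library was the extreme one in 54.0% of genes, the miR-124 library in 52.5%, and the miR-122 library in 38.8%. The SD of the log2 ratio over genes was 0.284 to 0.31 for the control against the single mimics and 0.26 to 0.309 between mimics. These values measure how much the libraries differ and do not separate an effect common to the mimics from a peculiarity of the control library, which cannot be told apart with 1 control.

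**Figure D2:**
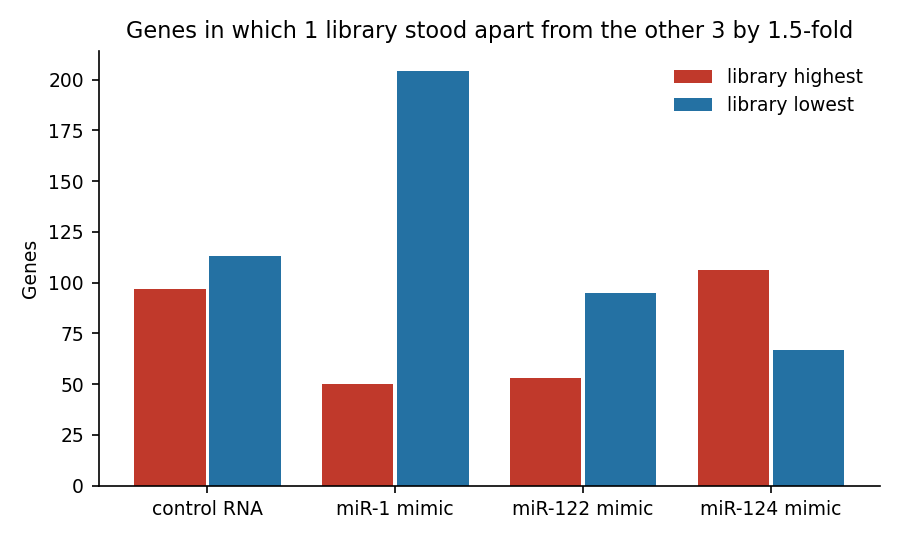
Bars give the number of genes, of 8028 with at least 100 reads, in which the named library was at least 1.5-fold above (red) or below (blue) the mean of the other 3 libraries, with all 3 on the same side of it. The control has 97 and 113 genes, and the largest bar is the 204 genes in which the miR-1 library was lowest.

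Noncoding genes and pseudogenes supplied more of the shared genes than their number in the comparison, but the classes were not matched for read depth. Among 6475 protein-coding genes, 43 were shared higher (0.664%) and 32 shared lower (0.494%). Among 1176 lncRNA genes, 56 were higher (4.76%) and 53 lower (4.51%), and among 284 pseudogenes 8 were higher and 8 lower. Among all lncRNA genes compared, without the minimum of reads, 9.24% were higher and 11.8% lower, against 0.87% and 0.763% of protein-coding genes. The lncRNA percentages thus depended on read depth, and how much of the class difference came from depth was not tested. The share of reads on lncRNA genes as a class was 6.66% in the control and 6.47 to 6.6% in the mimics. The shared genes were chosen by their ratio, so their larger difference was set by the rule. Of the shared lncRNA genes, 32 of 56 higher and 35 of 53 lower had at least 50% of their span inside a protein-coding gene, against 62.9% of all 1176. The files were counted over gene spans and the strand used is not given in the sources used here, so reads of such a gene and of its host gene cannot be separated.

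The largest ratios in each direction, named after their values were seen, were mostly of lncRNAs and pseudogenes. LINC01816, an intergenic lncRNA on chromosome 2 (70124034 to 70132923, minus strand), had an FPKM of 0.118 in the control and 2.48, 1.33, and 0.966 in the miR-1, miR-122, and miR-124 libraries. Its recovered reads were 7 in the control and 210, 70, and 56 in the mimics, at a length other than the annotated span. Each of these is a multiple of 7, so smaller counts at a shorter length give the same FPKM values. The control may thus have held fewer than 7 reads, and the gene may be under the minimum of reads. The mean ratio was 13.5, and its interval from 7.0 to 36.5 is then too narrow. LINC01896 on chromosome 18 went from 0.659 to 1.97, 3.17, and 3.07 (11 control reads), a mean ratio of 4.15. Both genes passed only through the mimic mean. In both the control lay well under the lowest mimic, a side set by the rule, and the mimics differed among themselves by more than 1.5-fold.

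At the other end, the lowest mean ratio was 0.375, in FAM3C2P, a processed pseudogene of FAM3C on chromosome X. Its FPKM was 10.8 in the control and 4.51, 4.38, and 3.22 in the mimic libraries in the same order, with 72 control reads. The parent FAM3C, which was under the FPKM minimum, had 0.686 in the control and 0.94, 0.922, and 0.706 in the mimics. The pseudogene and the parent thus lay on opposite sides of the control, and since they share sequence, how the counting assigned reads to each is uncertain. IRAIN, a noncoding RNA from the IGF1R locus, had 4.31 in the control and 1.76, 2.02, and 1.1 in the mimics. Its recovered reads, 60 in the control and 35, 25, and 15 in the mimics, came from a length other than the annotated span. They share a common divisor, so smaller counts at a shorter length give the same FPKM values. IRAIN may therefore be under the minimum of reads.

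Among the lncRNAs shared lower was MALAT1, a nuclear lncRNA on chromosome 11 (65497640 to 65508073, plus strand) that associates with splicing speckles. Its FPKM was 59.3 in the control and 30.9, 33.6, and 42.7 in the miR-1, miR-122, and miR-124 libraries. The rule set all 3 mimics below the control. The mean ratio was 0.602, with an interval of the pooled reads from 0.568 to 0.617 over 10147 reads. Of the other lncRNAs in the list of nuclear and structured noncoding RNAs, NEAT1, the paraspeckle RNA, had 21.8 in the control and 23.8, 21.1, and 19.8 in the mimics, and NORAD had 63.8 and 52.6, 60.2, and 51.6. OIP5-AS1 had 4.0 in the control and 3.14, 3.75, and 3.13 in the mimics. Some lncRNAs outside that list lay as far out as MALAT1 and were named after their values were seen. MIRLET7A1HG, the host of a let-7 cluster, had 4.74 and 3.25, 3.08, and 1.83 (ratio 0.574). SIAH2-AS1, shared higher, had 11.3 and 19.7, 17.2, and 15.2 (ratio 1.54). The recovered reads of SIAH2-AS1, 51522, were more than the 37998 of ACTB, and this number is uncertain.

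RN7SL2, a gene of the 7SL RNA of the signal recognition particle, was shared higher. Its FPKM was 1660 in the control and 2573, 2293, and 2694 in the miR-1, miR-122, and miR-124 libraries, a mean ratio of 1.52 with an interval from 1.47 to 1.59. By the rule, the control was the lowest of the 4 libraries. Near-identical 7SL copies share reads, and RN7SL3 had 3.04 in the control and 7.46, 4.56, and 9.86 in the mimics on 54 reads in all. Neither RNA ends in a natural poly(A) tail, and the libraries were made with an mRNA-seq kit. The share of all reads on 7SL genes and 7SK was 0.0477% in the control and 0.0659 to 0.0776% in the mimics, and the part of mRNA selection in this difference was not tested. MT-TT, the mitochondrial threonine tRNA, had 41.8 in the control and 73.2, 65.3, and 73.8 in the mimics on 119 reads, while reads on the whole mitochondrial genome made up 4.08% in the control and 3.94 to 4.27% in the mimics.

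Among the lncRNAs with an FPKM of at least 10, several overlapped protein-coding genes. KLC2-AS2 had 11.0 in the control and 22.5, 23.4, and 22.2 in the miR-1, miR-122, and miR-124 libraries, so the 3 mimics were nearly level at 2.06 times the control. For KLC4-AS1 the control had 11.1 and the mimics had 20.7, 22.5, and 18.2. These are antisense to KLC2 and KLC4, which encode kinesin light chains, and the log2 of the mimic mean over the control for the hosts was 0.26 and 0.06. On the lower side, THRIL had 18.0 in the control and 7.82, 8.85, and 12.5 in the mimics inside BRI3BP (log2 of -0.47), and NUP153-AS1 had 23.7 and 16.6, 13.9, and 16.9 overlapping NUP153 (log2 of -0.34). SMARCA5-AS1 had 21.2 and 14.2, 16.1, and 11.6, with SMARCA5 at a log2 of -0.02. The hosts of the lower antisense genes thus lay below the control or near it, and by less than the antisense genes themselves.

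Of the 43 shared higher protein-coding genes, 37 were under an FPKM of 10 in every library, their median ratio was 1.6, and 16 had passed the FPKM minimum only through the mimic mean. These genes were named after their values were seen, by the largest distance of the nearest mimic from the control. HMGB1P1, an HMGB1-like gene on chromosome 20 that the annotation lists as protein-coding, had an FPKM of 0.475 in the control and 1.33, 1.87, and 1.95 in the miR-1, miR-122, and miR-124 libraries. It was the gene of this class farthest from the control, at a mean ratio of 3.61 (interval 2.3 to 5.55), and passed only through the mimic mean. Its recovered reads, 24 in the control and 96, 84, and 96 in the mimics, share a common divisor. Smaller counts at a shorter length thus give the same FPKM values. The gene may be under the minimum of reads, and its interval is then too narrow. HMGB1, the chromatin protein it resembles, had 2.94 and 2.77, 2.74, and 2.47, and shared sequence makes the division of reads between them uncertain.

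Among the 10 higher genes named by this distance were 4 that encode transcription factors. The share of such genes over all genes was not counted, so this number is not a result about the class. FOXL2, a factor of the ovary and eyelid, had 1.29 in the control and 2.25, 2.74, and 2.33 in the mimics. BARHL2, a neural homeobox gene, had 0.768 and 1.39, 1.43, and 1.19, and passed only through the mimic mean. MESP1, a factor of early mesoderm, had 2.39 and 4.43, 4.17, and 3.62, and SP5, a target of Wnt signalling, had 1.83 and 2.83, 2.68, and 3.86. The rule set all 3 mimics above the control in each of them, and the control values rested on 25, 29, 42, and 33 reads, respectively.

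TNNC1, the troponin C of heart and slow muscle, had 0.916 in the control and 1.85, 1.55, and 1.77 in the miR-1, miR-122, and miR-124 libraries, and also passed only through the mimic mean. ADAM15, a membrane-bound metalloprotease, had 3.14 and 4.63, 4.73, and 4.84, and its mimics spanned only 0.0646 on the log2 scale. NPM3, a nucleolar histone chaperone of the nucleoplasmin family, had 12.9 and 22.2, 18.2, and 18.3. CCNQ, the cyclin that partners CDK10, had 1.39 and 2.57, 2.27, and 2.14. For these genes all 3 mimics sat close together above the control, whereas in EMC6, a subunit of the membrane protein insertion complex, the mimics ranged from 53.5 with miR-124 to 83.2 with miR-1 over a control of 43.4.

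Of the 32 shared lower protein-coding genes, all were under an FPKM of 10 in every library, their ratios ran from 0.495 to 0.667, and 16 had passed the FPKM minimum only through the control library. AKAP5, an anchor of protein kinase A, had 1.79 in the control and 0.799, 0.906, and 0.962 in the miR-1, miR-122, and miR-124 libraries. It had the lowest ratio of the class, with an interval from 0.381 to 0.628. SOX9, a transcription factor of cartilage and gonad, had 3.94 and 1.78, 2.39, and 2.41, a mean ratio of 0.556. The control was the highest library in both, as the rule required, and the miR-1 library was the lowest.

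SMG1, a kinase of nonsense-mediated mRNA decay, had 1.53 in the control and 0.967, 0.862, and 0.974 in the mimics on 3725 reads, a mean ratio of 0.611. Pseudogene copies of SMG1 share reads with it. AHNAK, a giant scaffold protein, had 4.67 and 2.92, 3.2, and 3.19 on 12025 reads, the most of any shared lower gene, with an interval from 0.634 to 0.685. ACTR8, a subunit of the INO80 chromatin remodeler, had 1.68 and 1.13, 1.11, and 1.1, so that the mimics differed by only 0.0281 on the log2 scale. ZNF507, a zinc finger protein, had 1.72 and 0.998, 1.13, and 1.13, and SLC5A3, a myo-inositol transporter, had 1.5 and 0.913, 0.894, and 0.994. In each of these genes the 3 mimics were closer to each other than to the control, which ranking by the nearest mimic favours. AKAP5, SMG1, and SLC5A3 had passed only through the control, so their direction was favoured by the filter, while SOX9, AHNAK, ACTR8, and ZNF507 had passed in both.

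**Figure D3:**
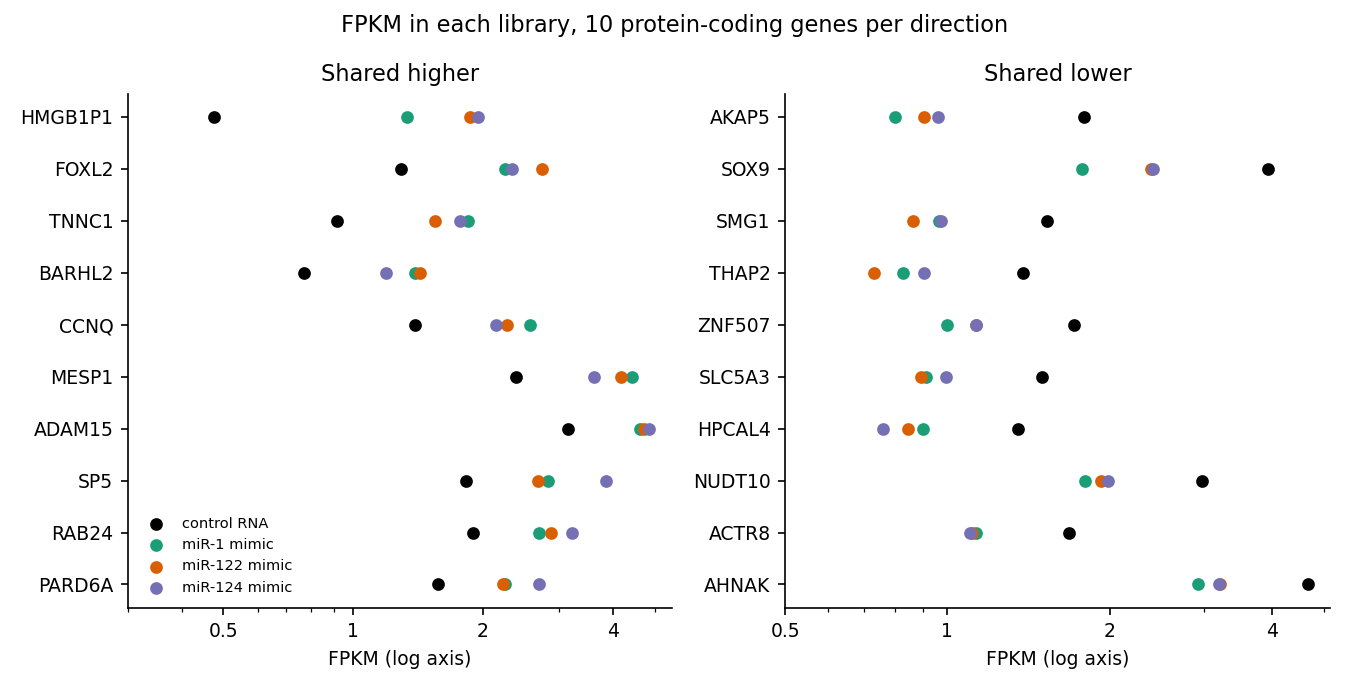
Points give FPKM on a log axis in the control (black), miR-1 (green), miR-122 (orange), and miR-124 (purple) libraries. Shown are 10 shared higher and 10 shared lower protein-coding genes with at least 100 recovered reads. The control lies outside the 3 mimics in all 20 genes because the rule required it, and the mimics are in no fixed order. Levels are not comparable between genes because the length behind FPKM includes introns.

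The miR-1 library had a larger part in the shared lower protein-coding genes than the other mimic libraries. It was the lowest of the 3 mimics in 21 of these 32 genes, against 7 for miR-122 and 4 for miR-124. Over all 97 shared lower genes the libraries differed less. Without the miR-1, miR-122, or miR-124 library, 76, 79, and 85 of them still met the rule. In the 43 shared higher protein-coding genes the farthest mimic was miR-124 in 20, miR-1 in 13, and miR-122 in 10. TWF1, an actin monomer binding protein and a known miR-1 target, had 6.37 in the control and 2.13, 5.28, and 4.39 in the miR-1, miR-122, and miR-124 libraries. UHMK1, a kinase, had 3.29 and 1.18, 2.5, and 2.08, and GJA1, the gap junction protein connexin 43, had 2.85 and 1.52, 1.67, and 2.41. In TWF1 and UHMK1 the miR-1 library lay far below both other mimics. Without the miR-1 library, 14 of the 32 genes no longer met the rule, among them TWF1 (ratio 0.758), UHMK1 (0.697), GJA1 (0.716), and NOTCH2 (0.729). For these 32 genes the loss without the miR-122 or miR-124 library was not counted. NOTCH2, at 1.04 in the control and 0.545, 0.763, and 0.753 in the mimics, had passed the FPKM minimum only through the control. A miR-1 site was in 7 of the 14, against 13 of all 32. TWF1P1, a processed pseudogene of TWF1 that can share its reads, was also shared lower, with 9.36 in the control and 1.82, 4.54, and 4.58 in the mimics. AKAP5 and SOX9 were still called without the miR-1 library.

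Sites for miR-1 were more frequent in the 3′ UTRs of shared lower genes, whose 3′ UTRs were also longer and poorer in G and C. At least 1 ACATTCC was found in 13 of 32 shared lower genes (40.6%), in 1 of 43 shared higher genes (2.33%), and in 12.9% of 6460 genes with a 3′ UTR. ACACTCC was found in 5 (15.6%), 1 (2.33%), and 9.3%, respectively. The words were searched on the mRNA strand only, in the 3′ UTR of 1 GENCODE 44 transcript per gene. Sites for miR-124 were not searched. The median 3′ UTR was 2826 bases in shared lower, 545 in shared higher, and 1494 in all genes. Among 3′ UTRs of at least 2000 bases, 11 of 20 shared lower genes had a miR-1 site and 4 a miR-122 site, against 23.9% and 16.0% of 2445 genes. The 13 shared lower genes with a miR-1 site had median log2 ratios of -0.93, -0.58, and -0.61 in the miR-1, miR-122, and miR-124 libraries. The 15 with neither a miR-1 nor a miR-122 site had -0.74, -0.54, and -0.55. These are the ratios by which the genes were chosen.

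The sites found in the 10 shared lower protein-coding genes farthest from the control by their nearest mimic, and those of TWF1, are shown as DNA of the mRNA strand with the seed match in capitals, and with a following A in capitals where it extends the match to 8 letters. They are shown to set the matches beside the values, and they were printed because they hold a match. Of those 10 genes, ZNF507, ACTR8, AHNAK, and THAP2 held neither word, and none held both. Coordinates are on GRCh38.
AKAP5, miR-1, chr14:64470160-64470181, plus strand: gatttgtaattgttACATTCCt
SOX9, miR-1, chr17:72125476-72125497, plus strand: agttaaccttcaagACATTCCA
SLC5A3, miR-1, chr21:34106145-34106166, plus strand: atttcttgcaaagtACATTCCt
TWF1, miR-1, chr12:43797329-43797350, minus strand: ttctttctgtataaACATTCCc
TWF1, miR-1, chr12:43793965-43793986, minus strand: attaaagtaaatggACATTCCA
SMG1, miR-122, chr16:18808626-18808647, minus strand: atttgatttaatgtACACTCCc
HPCAL4, miR-122, chr1:39682439-39682460, minus strand: tcccaggaggagggACACTCCA
NUDT10, miR-122, chrX:51336320-51336341, plus strand: agatgagctctttcACACTCCA
Of the genes with a miR-122 site, SMG1 was lowest in the miR-122 library and the others were not. HPCAL4, a neuronal calcium sensor, had 1.35 in the control and 0.9, 0.847, and 0.759 in the mimics, and NUDT10, a diphosphoinositol phosphatase, had 2.97 and 1.8, 1.93, and 1.99. AKAP5 was lowest with miR-1 but was also below the control by 0.99 and 0.90 on the log2 scale with miR-122 and miR-124. The word ATTTA, an element found in unstable mRNAs, was in 29 of 32 shared lower (90.6%), 44.2% of shared higher, and 68.5% of all 3′ UTRs, a count that also increases with length.

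The shared difference followed base composition across the whole set of mRNAs. The median G and C content of the 3′ UTR was 38.6% in shared lower genes, 51.5% in shared higher genes, and 47.8% in all 6460. Across genes, which are not independent replicates and share the same 4 libraries, Pearson's r between the log2 of the mimic mean over the control and 3′ UTR GC content was 0.475. For the single mimics it was 0.62 (miR-124), 0.347 (miR-122), and 0.2 (miR-1). With the log2 of 3′ UTR length r was -0.364, and with the log2 of reads it was 0.0388. In the decile of genes poorest in GC the median log2 ratios were -0.06, -0.09, and -0.18 in the miR-1, miR-122, and miR-124 libraries, and in the richest decile they were 0.10, 0.16, and 0.33. Shared higher genes were most numerous in the richest decile (10), and no shared lower gene was in the richest 3 deciles.

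**Figure D4:**
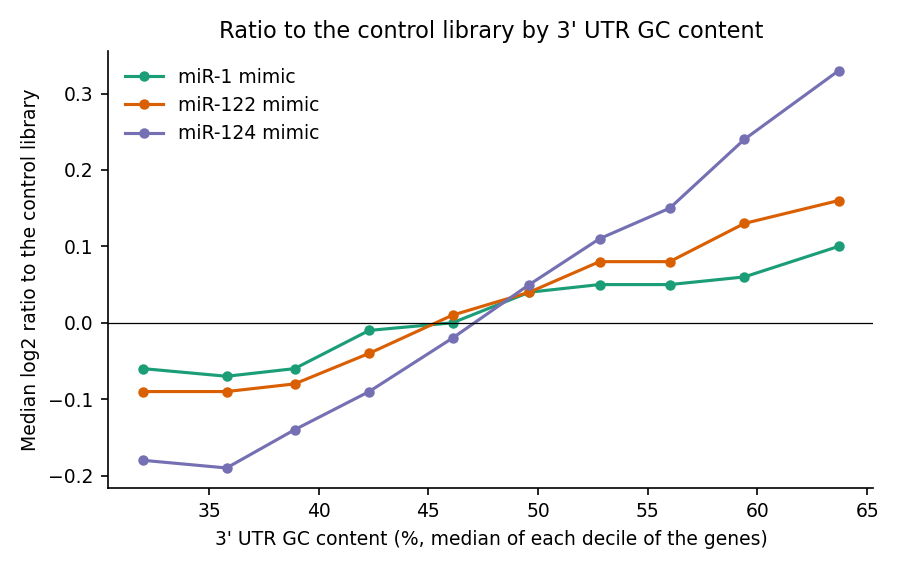
Points give the median log2 ratio to the control library of 646 genes in each decile of 3′ UTR GC content, placed at the median GC content of that decile. The lines of all 3 mimics go from below 0 to above 0, from -0.18 to 0.33 for miR-124 and from -0.06 to 0.10 for miR-1.

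The same property set apart the control and the miR-124 library in opposite directions. With each library over the mean of the other 3, r with 3′ UTR GC content was -0.475 for the control, 0.575 for miR-124, 0.0476 for miR-122, and -0.135 for miR-1. In genes under 40% GC the control was above the others by a median of 0.11 and miR-124 was below by 0.12 on the log2 scale, and in genes over 60% GC the control was at -0.19 and miR-124 at 0.23. The miR-122 library lay at -0.02 and 0.01. A cubic trend with the span, the reads, and the length and GC content of the 3′ UTR held 41.5% of the variance of the log2 ratio over genes for miR-124, 15.3% for miR-122, and 14% for miR-1. After subtraction of this trend, 25 of the 43 shared higher and 10 of the 32 shared lower genes that it covered still met the rule. HMGB1P1 (3.76), FOXL2 (1.82), BARHL2 (1.8), TNNC1 (1.7), and SP5 (1.63) were among the higher ones, and AKAP5 (0.569), SOX9 (0.603), and HPCAL4 (0.66) among the lower ones. Of these, HMGB1P1, BARHL2, and TNNC1 had passed the FPKM minimum only through the mimic mean. AKAP5 and HPCAL4 had passed it only through the control. For such genes the filter favoured the direction, and remaining past 1.5-fold gives it no support. AHNAK (0.698), SMG1 (0.711), ZNF507 (0.722), ACTR8 (0.711), and SLC5A3 (0.731) came to lie inside 1.5-fold, as did NPM3 (1.37) and ADAM15 (1.29). Whether composition acted in the cells or in library preparation was not tested.

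Pathways were described with 36 gene lists, by how many members lay on 1 side of the control in all 3 mimics and by their median. The share over all genes with at least 100 reads was 29.9% above and 24.9% below, and the median log2 ratio of the mimic mean was 0.03. Medians of the 30 lists with at least 10 members tested ran from -0.21 to 0.14, and only 5 list members with at least 100 reads were past 1.5-fold in the shared direction: TWF1, ZNF507, and MALAT1 lower, and H2AC25 and RN7SL2 higher. The other members that met the rule, of which most were histone genes, had fewer reads.

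Nuclear-encoded genes of the respiratory chain, which make ATP in mitochondria, were above the control in all 3 mimics for 30 of 70 members and below for 2, with medians of 0.22, 0.07, and 0.05 in the miR-1, miR-122, and miR-124 libraries. ATP5F1D, a subunit of ATP synthase, had 30.6 in the control and 38.9, 39.7, and 43.4 in the mimics. NDUFA3 of complex I had 13.5 and 17.5, 17.2, and 15.8, whereas UQCR11 of complex III had 2.65 and 2.34, 2.31, and 2.51. The mRNAs encoded by mitochondrial DNA had no common side, with 2 of 12 above and 2 below and MT-ND4L, the lowest, at 403 in the control and 318, 317, and 289.

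Ribosomal protein and proteasome mRNAs lay above the control mainly in the miR-1 library. Of 81 cytosolic ribosomal protein genes, 38 were above in all 3 mimics and 1, RPL36A, was below, with medians of 0.19, 0.03, and 0.03. RPL22L1 was highest against the control at 4.87 and 8.77, 5.91, and 5.71. Of 66 mitochondrial ribosomal protein genes 30 were above and 6 below (medians 0.20, 0.08, and 0.05), with MRPL12 at 6.19 and 10, 8.56, and 6.72 and MRPL19 at 1.49 and 1.19, 1.04, and 1.13. Of 28 proteasome genes 16 were above and 1 below, with PSMC3 at 33.1 and 42.9, 41.4, and 37.6. After subtraction of the composition trend, 24.4% of all genes it covered were above and 23.6% below. The counts were then 17 above and 21 below for cytosolic and 19 and 7 for mitochondrial ribosomal protein genes. They were 29 and 9 for respiratory chain genes and 14 and 2 for proteasome genes. What remained was mainly in the miR-1 library. The medians in the miR-1, miR-122, and miR-124 libraries were then 0.15, 0.01, and 0.01 for respiratory chain genes. They were 0.14, 0.02, and -0.02 for mitochondrial ribosomal protein genes and 0.14, 0.03, and 0.02 for proteasome genes. Cytosolic ribosomal protein genes had 0.06, -0.06, and -0.06.

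Chromatin regulators with long mRNAs were the list with the lowest median. None of 23 was above the control in all 3 mimics and 15 were below, with medians of -0.25, -0.21, and -0.15 in the 3 libraries in that order. KMT2A, a histone H3 lysine methyltransferase, had 1.11 in the control and 0.726, 0.743, and 0.822 in the mimics, and TRRAP, a scaffold of histone acetyltransferase complexes, had 1.37 and 0.952, 0.947, and 1.0. At the other end SMARCA4, the ATPase of the SWI/SNF remodeler, had 2.08 and 2.07, 2.43, and 2.45. KMT2A and TRRAP were among 5 members that had passed the FPKM minimum only through the control, a filter that favours values below it. Of the 18 that passed in both, 10 were below and none above, with a median of -0.15, against 23.2% below and 30.2% above over all genes that passed in both. With the composition trend subtracted, 15 of the 23 were below and 2 above, and the median was -0.15.

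Nuclear pore and mitosis genes lay on the same side with smaller medians. Of 25 nuclear pore genes 1 was above and 15 below, with NUP50 at 5.1 in the control and 3.39, 4.48, and 4.06 in the mimics and NUP153 at 1.38 and 1.16, 1.03, and 1.07. Of 40 mitosis genes 7 were above and 20 below, with medians of -0.01, -0.10, and -0.19, so that the miR-1 median was near 0. BUB1B, a spindle checkpoint kinase, had 1.32 and 1.05, 0.989, and 0.913, and UBE2S, a ubiquitin-conjugating enzyme of mitotic exit, had 51.1 and 69.1, 59.6, and 61.6. Among 46 SR proteins and hnRNPs, which act in splicing, 5 were above and 22 below, with SRSF10 at 13.9 and 10, 10.7, and 10.3 and SREK1 at 2.61 and 1.86, 2.05, and 1.88. With the composition trend subtracted, 13 SR protein and hnRNP genes were above and 12 below, with a median of -0.01. By contrast, 1 nuclear pore gene was above and 11 below, and 3 mitosis genes were above and 19 below. In the miR-1 library the median was then -0.01 for nuclear pore genes and -0.01 for mitosis genes.

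**Figure D5:**
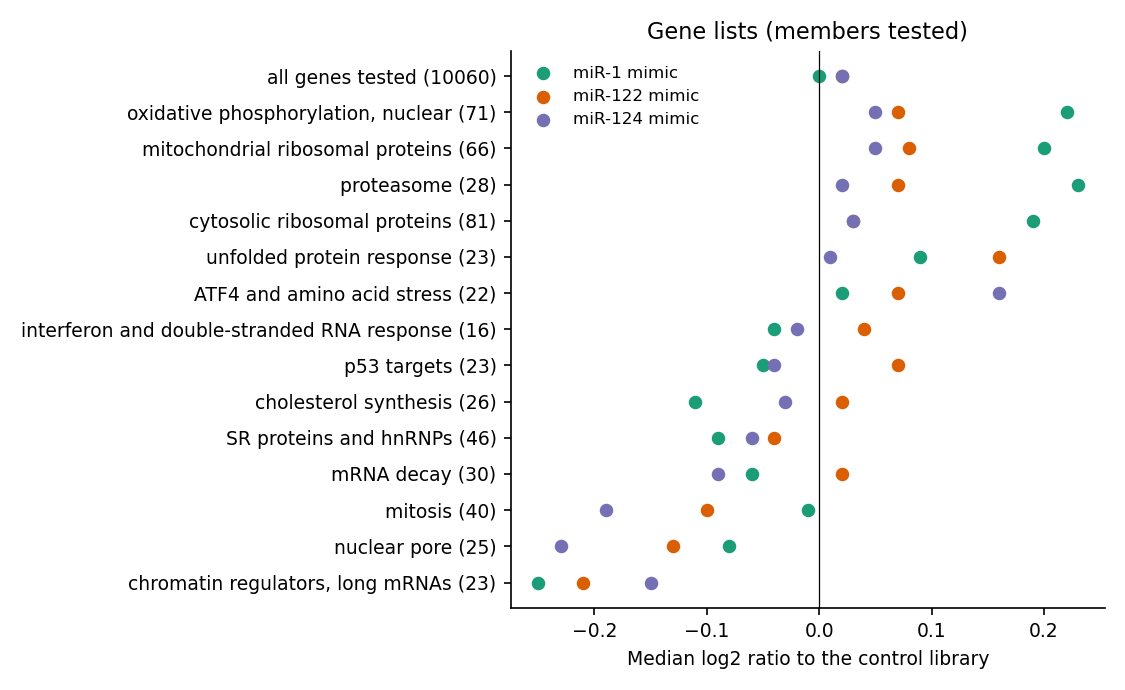
Points give the median log2 ratio to the control library in the miR-1 (green), miR-122 (orange), and miR-124 (purple) libraries for 14 gene lists and for all 10060 genes tested, with the number of members tested in brackets. Chromatin regulators lie at -0.25 to -0.15 and nuclear-encoded respiratory chain genes at 0.05 to 0.22, and the stress lists lie between.

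Responses to foreign RNA and to cell stress were looked for because double-stranded RNA is known to start such responses. The control cells also received RNA, so a response common to all transfections would not show in these ratios. Of 47 interferon and double-stranded RNA response genes listed, 16 were tested. Of these 16, 6 were above and 6 below in all 3 mimics, the median was 0.02, and in none was the mimic mean past 1.5-fold. IFI6 had 4.36 in the control and 5.31, 5.66, and 5.25 in the mimics, IRF7 had 4.47 and 4.91, 4.98, and 6.6, and OAS3 had 2.11 and 1.41, 1.57, and 1.83. ADAR, the RNA adenosine deaminase, had 5.21 and 2.64, 4.47, and 4.57, so that the miR-1 library alone was past 1.5-fold. The median was -0.01 for 23 p53 targets, 0.09 for 23 unfolded protein response genes, 0.08 for 22 ATF4 and amino acid stress genes, and -0.03 for 26 cholesterol synthesis genes, with no member past the rule in any of them. Among immediate early genes, EGR1, an early response transcription factor, was 2.05 in the control and 3.07, 3.02, and 3.03 in the mimics, a ratio of 1.482, while DUSP4, a MAP kinase phosphatase, was 1.11 and 0.739, 0.589, and 0.966.

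Genes of the miRNA machinery did not share a direction. Of 7 tested, 1 was above and 3 below. AGO2, the Argonaute protein that carries miRNAs and can cleave targets, had 1.04 in the control and 0.716, 0.706, and 0.802 in the miR-1, miR-122, and miR-124 libraries, a ratio of 0.715 with an interval from 0.655 to 0.775. TARBP2, a partner of Dicer, had 9.42 and 11.3, 10.8, and 11.1, and DGCR8, a partner of Drosha, had 1.82 and 1.78, 1.82, and 1.96. AGO2 was inside 1.5-fold and had passed the FPKM minimum only through the control, so the filter favoured its direction.

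Replication-dependent histone genes, whose mRNAs lack poly(A) tails, were mostly too thinly read to describe, with 8 of 23 tested members at 100 reads or more. H2AC25 had 17.2 in the control and 21.1, 30.4, and 26.3 in the mimics and sat just inside the threshold at a ratio of 1.505. LYSET was just outside it at 1.498, and on the lower side ZKSCAN8 (0.6666) was just inside and ALG10 (0.6703) just outside. H2BC12 had 181 and 176, 221, and 181. Genes close to the threshold are therefore not distinct from their neighbours.

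The marker genes of 293T cells were near level across the libraries. Of 24 genes listed for 293T cells and embryonic kidney, 11 were tested, 3 above and 5 below the control in all 3 mimics, and their summed FPKM was 116 in the control and 116 to 129 in the mimics. SIX2, a nephron progenitor factor, had 7.07 in the control and 8.3, 8.95, and 9.56 in the mimics, and LHX1, of the early kidney, had 1.23 and 0.865, 0.977, and 0.988. Of the markers of tissues in which these miRNAs are abundant, 1 of 18 for hepatocytes, 2 of 16 for muscle, and 0 of 16 for neurons reached the FPKM minimum.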

How the data were processed

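mRNA from 293T cells was measured by single-end RNA-seq in 4 libraries, 1 per condition. Per the labels and methods, reads were processed with CASAVA 1.8 and aligned to GRCh38 with HISAT2 2.0.0, and the authors deposited FPKM values per gene. The counting program and annotation are not given in the sources used here. Reads were recovered from the deposited FPKM values, which are whole multiples of the value of 1 read. At the span of GENCODE 44, introns included, 58.4% of 32010 genes gave whole reads (tolerance 0.002). Another length did so for 11310 genes within 10% of that span and for 1804 beyond it, and 0.6% were approximate. A multiple of the true length also gives whole reads, so recovered reads can be too high. In each library they came to 104.1 to 104.3% of the divisor. Recovered reads served for the minimum of 100 reads and for counting intervals. Calls used the deposited values without a pseudocount. Named genes were the 12 per direction with the largest smallest-of-3 log2 ratio at an FPKM of at least 10 and at least 100 reads (1 eligible gene is not reported here), the 2 most shifted members per direction of each list described, and members of quality lists. The 10 protein-coding genes per direction, TWF1 and the largest ratios were chosen after their values were seen. The genes, lists, and rules were chosen with earlier results of these data known. Steps were tested on simulated data in which every gene had its annotated span, so recovery at another length was not tested. The software was matplotlib 3.10.9, pandas 2.3.3, scipy 1.17.1, and numpy 2.4.6 under Python 3.11.15.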

Additional observations from a re-analysis of the deposited data

How the results depend on the processing

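No paired analysis was possible because no condition had more than 1 library, and no test was made. Shared higher genes numbered 362 and shared lower genes 740. Higher and lower counts came to 28 and 30 at an FPKM of at least 10, 1955 and 3742 above 0.004, 113 and 97 with at least 100 reads, 57 and 50 in protein-coding genes, 46 and 30 less the GC and length trend, and 172 and 443 with each mimic past 1.5-fold. With a 2-fold rule there were 168 higher genes and with a pseudocount of 1 there were 187. Alternatives for genes with at least 100 reads were chosen after seeing the data. From 113 higher and 97 lower, these came to 8 and 12 at 2-fold, 26 and 29 with each mimic past 1.5-fold, 35 and 31 with a pseudocount of 1, 32 and 15 less the trend, and 43 and 32 in protein-coding genes. Leaving out the miR-1, miR-122, or miR-124 library gave 156, 129, and 111 higher and 103, 123, and 136 lower genes, of which 93, 96, and 79 higher and 76, 79, and 85 lower ones were among the 113 and 97. The median log2 ratio over all genes, 0.02, was 0.10 at an FPKM of at least 10 and 0.01 less the trend. The median of cytosolic ribosomal protein genes, 0.08, was -0.02 less the trend, and that of SR protein and hnRNP genes, -0.06, was -0.01, while the other 6 lists followed kept their sign under all 7 settings. The trend covers only genes with a 3′ UTR, and the other causes were not tested.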
